A study of Mus musculus with 12 samples.

Results

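Resident Kupffer cells are the macrophages that live in the liver sinusoids, and 9 of their marker genes were followed across 12 mouse liver arrays. The genes were Clec4f, Cd5l, Vsig4, Marco, Timd4, Fcna, Folr2, Cd163 and Slc40a1, taken as a list of names. The list was chosen with earlier results of these data known. Shares of the markers set beside shares of all genes are therefore descriptions and not tests. Each marker was measured by 1 probe set that the platform annotation gives to that gene alone, so all 9 were among the 22180 genes tested. The arrays came from livers of male mice, 3 wild-type and 3 Lats2-CKO mice on a normal chow without cholesterol and 3 of each genotype on a high-cholesterol Paigen diet (1.25% cholesterol), with the 3 arrays of a group labelled as biological replicates. These diets are called chow and cholesterol feeding where values are listed. The mice were 8 weeks old when feeding began and were fed for 9 weeks. The Lats2 kinase belongs to the Hippo pathway, which restrains organ growth. The labels call the mutants both Lats2-CKO and Lats2-KO, and the sources used here do not give the deleted part, the Cre driver or the cells in which the gene was lost. Values are log2 expression after RMA, an array normalisation, so a difference of 1 is a 2-fold change.

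Kupffer cells settle in the liver before birth, renew themselves there, and take up lipoproteins, dying cells, bacteria and aged red cells from the portal blood. Signals from neighbouring endothelial and stellate cells hold their identity, through transcription factors such as LXR alpha (Nr1h3), ID3 and SPIC on top of the general macrophage factor PU.1 (Spi1). When resident cells are lost, for instance in fatty liver disease, monocytes enter the empty niche and slowly take on part of the same programme. In that process Timd4 is the marker that recruited cells acquire last.

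RefSeq promoter windows on GRCm38.p6 were found for 8 of the 9 genes, and the 250 bases before the annotated start are shown for 4 of them. Clec4f and Cd5l are shown because both rose with the diet, and Fcna and Cd163 because their fitted values had the opposite sign. The Clec4f window is chr6:83656117-83656366, minus strand, the Cd5l window chr3:87357631-87357880, plus strand, the Fcna window chr2:25627975-25628224, minus strand, and the Cd163 window chr6:124304401-124304650, plus strand, each written 5′ to 3′ along the gene. Capitals mark matches, on either strand, to GAGGAA, a core of the sites that PU.1 binds.
Clec4f: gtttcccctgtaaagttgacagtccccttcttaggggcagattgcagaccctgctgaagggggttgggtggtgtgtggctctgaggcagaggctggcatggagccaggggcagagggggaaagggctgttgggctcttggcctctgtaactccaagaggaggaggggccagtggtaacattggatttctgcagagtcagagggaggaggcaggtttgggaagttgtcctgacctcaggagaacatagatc
Cd5l: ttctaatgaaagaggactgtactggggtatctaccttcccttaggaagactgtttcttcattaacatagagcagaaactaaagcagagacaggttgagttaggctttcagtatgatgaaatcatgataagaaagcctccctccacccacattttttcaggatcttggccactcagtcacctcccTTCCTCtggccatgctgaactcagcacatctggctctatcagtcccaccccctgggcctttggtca
Fcna: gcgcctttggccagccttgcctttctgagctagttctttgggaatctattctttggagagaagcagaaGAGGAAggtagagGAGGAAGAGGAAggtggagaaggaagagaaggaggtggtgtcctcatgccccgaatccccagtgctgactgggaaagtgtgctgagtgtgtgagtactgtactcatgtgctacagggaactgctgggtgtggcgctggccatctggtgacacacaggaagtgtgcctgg
Cd163: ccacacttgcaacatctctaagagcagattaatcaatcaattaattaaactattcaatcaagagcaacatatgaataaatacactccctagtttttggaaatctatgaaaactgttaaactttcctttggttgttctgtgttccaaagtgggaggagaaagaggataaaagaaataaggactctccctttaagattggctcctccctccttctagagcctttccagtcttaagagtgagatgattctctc
The Cd5l window holds 1 match, on the strand opposite the gene, which begins 66 bases before the start, and the Fcna window holds 3, of which the nearest begins 163 bases before it. Vsig4 had 2 matches and Marco 1, while the letters were not found in the windows of Clec4f, Timd4, Folr2 and Cd163. GAGGAA on either strand occurs in 23.3% of 32851 promoter windows of the same length. These matches describe letters, and no binding was measured in this study. Slc40a1 had no window.

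Some facts about the arrays touch every result. Lats2 itself read 5.12 to 5.97 on the 6 wild-type arrays and 4.37 to 4.99 on the 6 Lats2-CKO arrays, without overlap (-0.72 ± 0.16, limma adjusted p = 0.486), and whether its probe set lies in the deleted part is not known here. Array medians ranged from 3.42 to 3.49 and fell into a higher and a lower set of 6 arrays each, unequally spread over the diets. Array 1 of every group was in the higher set and array 3 of every group in the lower. Array 2 was in the higher set on the normal diet and in the lower set on the high-cholesterol diet. Over all genes, 7 of the 12 arrays correlated best with an array of another group. Wild-type normal-diet array 3 had the lowest best correlation with its own group (r = 0.982, against 0.985 to 0.992 on the others) and its nearest array was Lats2-CKO high-cholesterol array 3 (r = 0.993). Wild-type high-cholesterol array 2 held the highest value of 7 of the 9 markers. Several marker changes and medians that rest on either of these arrays are also given without it. As a check of the label, 8 of the 9 genes read above 3.05, the 30th percentile of all probe set values, on all 12 arrays, while Cd163 read 2.93 on wild-type normal-diet array 3 and higher on the others. That cut is a weak check, because it lies below every array median. Marco and Cd163 were dim, with lowest values of 3.26 and 2.93.

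With the high-cholesterol diet, 3 of the 9 markers rose when the diet effect was averaged over the genotypes, namely Clec4f, Cd5l and Slc40a1, and none of the 9 fell past the threshold. Of all genes, 0.365% were called higher and 0.87% lower in this comparison (limma, Benjamini-Hochberg adjusted p below 0.05 over 22180 genes). Fitted changes were above 0 for 7 of the 9 markers, against 44.7% of all genes, and the median of the 9 was 0.54, against -0.02 over all genes. Fcna and Cd163 had negative fitted values. In whole liver RNA, a different number of Kupffer cells and a different amount of marker RNA per cell cannot be told apart. In the heat map of centred values 4 or more of the 6 high-cholesterol columns lie above the gene's mean for 6 markers (Clec4f, Cd5l, Vsig4, Timd4, Folr2 and Slc40a1) and 3 for Marco, while Cd163 is red mainly in the Lats2-CKO normal-diet columns.

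**Figure D1:**
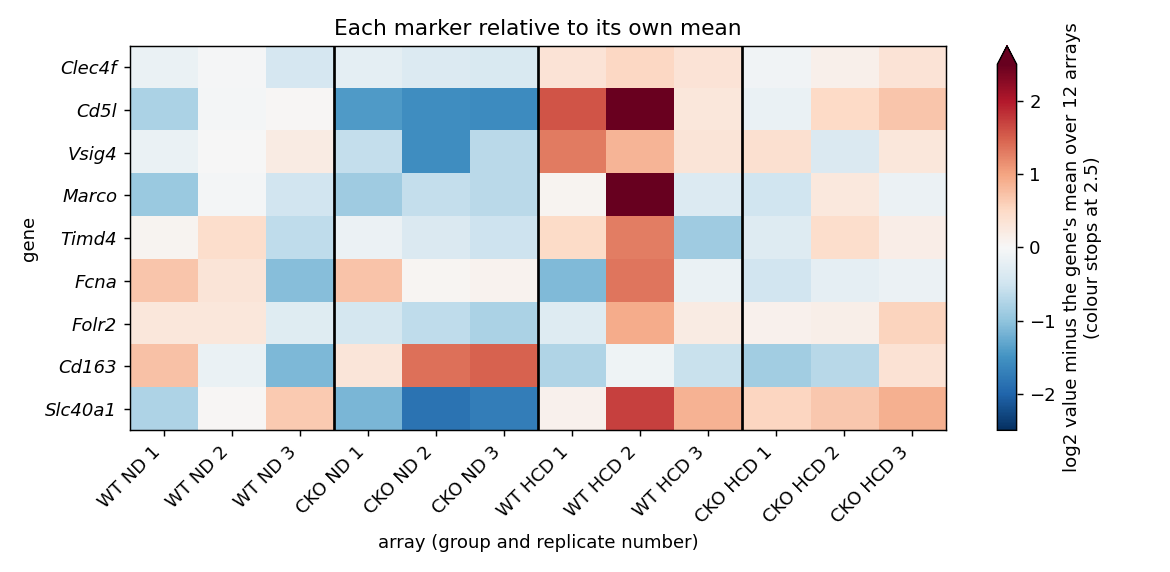
Heat map of the 9 markers (rows) on the 12 arrays (columns, grouped as WT ND, CKO ND, WT HCD and CKO HCD, where ND is normal diet and HCD high-cholesterol diet). Colour gives the log2 value minus that gene's mean over the 12 arrays and stops at 2.5, which Marco exceeded with 4.30 on WT HCD array 2.

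Clec4f, a C-type lectin made almost only by Kupffer cells in the mouse, read 7.72, 7.86 and 7.47 in chow-fed wild-type livers (arrays 1 to 3) and 8.24, 8.41 and 8.24 in cholesterol-fed ones. In Lats2-CKO livers it read 7.64, 7.54 and 7.52 on chow and 7.81, 8.02 and 8.23 under cholesterol feeding. In each genotype all 3 high-cholesterol arrays lay above all 3 normal-diet arrays, though 1 Lats2-CKO high-cholesterol value lay below the highest wild-type normal-diet value. Averaged over the genotypes Clec4f rose by 0.53 ± 0.09 (SE, 6 arrays against 6), or 1.45-fold (limma adjusted p = 0.0327). Its changes were 0.61 ± 0.13 in wild-type and 0.45 ± 0.13 in Lats2-CKO livers (3 arrays against 3), with limma adjusted p of 0.307 and 0.146.

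Cd5l, a secreted scavenger protein of tissue macrophages also called AIM, moved more in log2 terms. Its wild-type values were 8.39, 9.13 and 9.20 on chow and 10.75, 11.64 and 9.45 under cholesterol feeding. The Lats2-CKO values were 7.77, 7.63 and 7.61 on chow and 9.00, 9.68 and 9.87 under cholesterol feeding. Here too the diets did not overlap within either genotype, and the Lats2-CKO normal-diet arrays were the 3 lowest of all 12. The diet effect over both genotypes was 1.78 ± 0.32, or 3.43-fold (limma adjusted p = 0.038). It was 1.71 ± 0.45 in wild-type and 1.85 ± 0.45 in Lats2-CKO livers (limma adjusted p = 0.315 and 0.106).

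Slc40a1 encodes ferroportin, the iron exporter through which Kupffer cells return the iron of red cells to the blood, and other liver cells express it too. On chow it read 8.64, 9.44 and 10.06 in wild-type and 8.27, 7.57 and 7.68 in Lats2-CKO livers. Under cholesterol feeding the values were 9.51, 11.11 and 10.28 in wild-type and 9.94, 10.07 and 10.29 in Lats2-CKO livers. The wild-type diets overlapped, while in Lats2-CKO livers every high-cholesterol value lay above every normal-diet value. Over both genotypes Slc40a1 rose by 1.59 ± 0.29, or 3.01-fold (limma adjusted p = 0.0385). In Lats2-CKO livers the change was 2.26 ± 0.41, at a limma adjusted p of 0.0511, just short of the threshold, and in wild-type livers it was 0.92 ± 0.41 (limma adjusted p = 0.462). The wild-type value was 0.51 without high-cholesterol array 2 and 0.54 without normal-diet array 1.

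These 3 calls lay close to the threshold. With the array sets as a block their limma adjusted p became 0.067, 0.0773 and 0.0709, although the changes were 0.53, 1.70 and 1.41. None of the 9 markers was called then, and 0.194% of all genes were. Within the higher array set the diet differences were 0.34 for Clec4f, 1.65 for Cd5l and 1.25 for Slc40a1, and within the lower set 0.73, 1.75 and 1.56. The median difference of the 9 was 0.34 in the higher and 0.83 in the lower set for the diet, and -0.34 and -0.35 for genotype over both diets. Without chow-fed wild-type array 3 there were 4 called markers (4 of 9, where 7.24% of all genes were called in either direction). Without cholesterol-fed wild-type array 2 there were 0, where 0.0857% of all genes were called. With both of these arrays omitted the called markers were Clec4f, Cd5l and Slc40a1, higher, and Fcna, lower (5.95% of all genes called). Without cholesterol-fed wild-type array 1 there were 2 (0.618% of all genes), and without array 3 there were 4 (1.36%). Omission of any other single array gave 0, where 0.0271% to 0.428% of all genes were called. The changes stayed between 0.48 and 0.59 for Clec4f, 1.52 and 2.07 for Cd5l, and 1.39 and 1.79 for Slc40a1 over all 12 omissions.

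**Figure D2:**
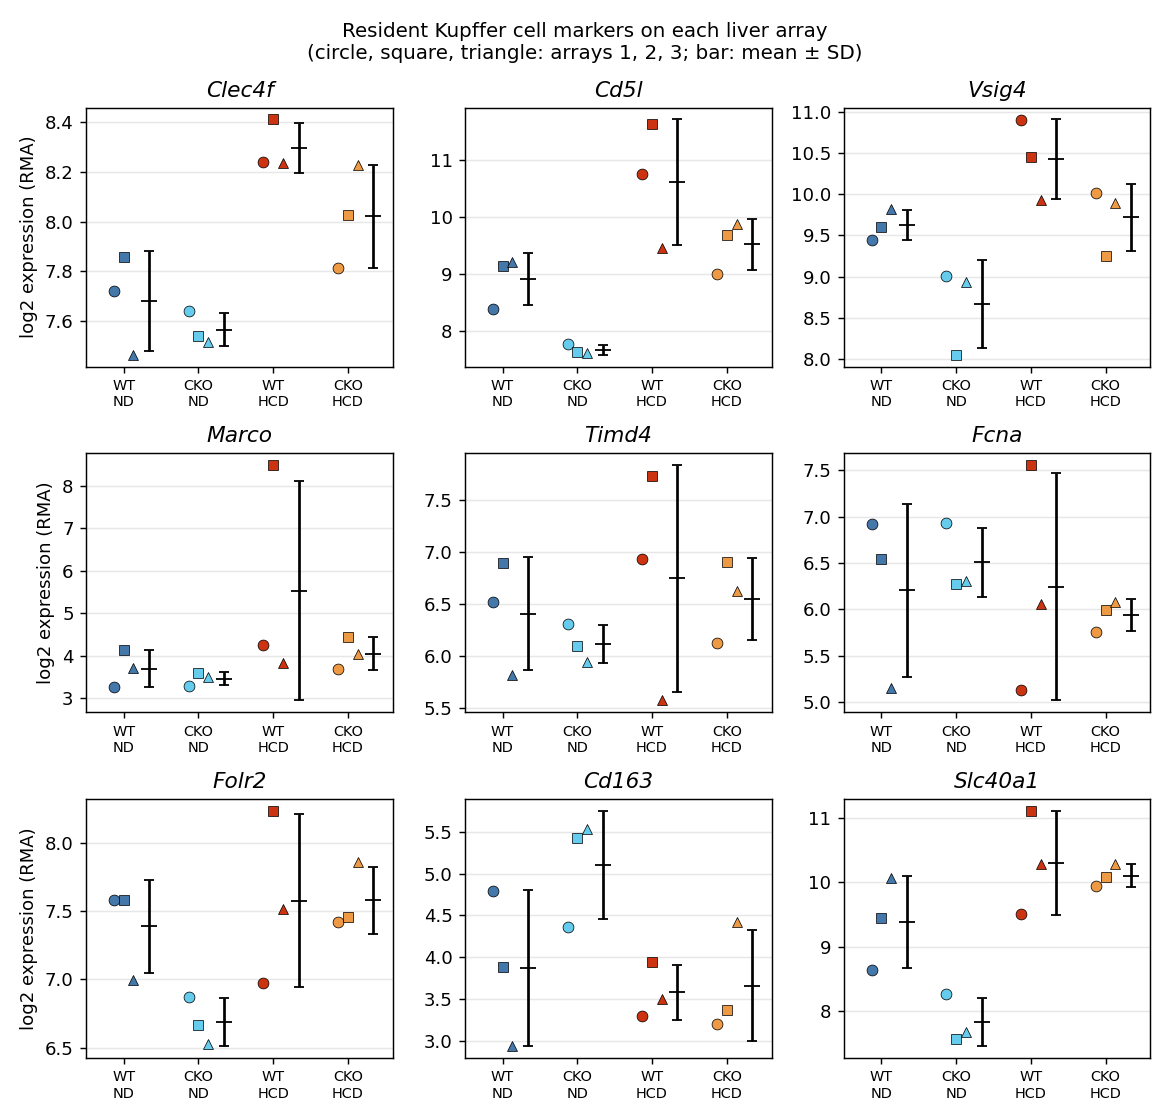
Log2 expression (y axis, RMA) of each of the 9 markers in the 4 groups (x axis), with circles, squares and triangles for arrays 1, 2 and 3 and bars for mean ± SD over 3 arrays. The y axes differ between panels and do not start at 0. Clec4f, Cd5l and Vsig4 show no overlap between diets within a genotype, and Marco has a lone high value of 8.49.

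Among the surface receptors, Vsig4, a complement receptor of resident macrophages that also dampens T cell activation, was near the called genes. It read 9.45, 9.61 and 9.82 in chow-fed wild-type livers and 10.90, 10.45 and 9.93 in cholesterol-fed ones. Lats2-CKO livers gave 9.01, 8.05 and 8.93 on chow and 10.01, 9.26 and 9.90 under cholesterol feeding. The diets were again apart within each genotype. The change over both genotypes was 0.93 ± 0.21 (limma adjusted p = 0.0615). Without wild-type normal-diet array 3 it was 0.98 and passed (limma adjusted p = 0.0334, where 7.24% of all genes were called). Vsig4 passed in 2 of the 12 single-array omissions, over which its limma adjusted p reached 0.166. Of 8 other settings it passed in 2.

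Folr2, a folate receptor of resident tissue macrophages, separated the diets in Lats2-CKO livers and not in wild-type livers. Wild-type values were 7.58, 7.58 and 7.00 on chow and 6.98, 8.24 and 7.52 under cholesterol feeding, which overlap. Lats2-CKO values were 6.87, 6.67 and 6.52 on chow and 7.42, 7.46 and 7.86 under cholesterol feeding. The changes were 0.19 ± 0.28 and 0.89 ± 0.28 (limma adjusted p = 0.866 and 0.189). Their difference was 0.70 ± 0.40, with a 95% interval of -0.17 to 1.57 (limma adjusted p = 0.929), and it was 0.40 with cholesterol-fed wild-type array 1 omitted and 1.23 with chow-fed wild-type array 3 and cholesterol-fed array 2 both omitted.

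Timd4, also called TIM-4, binds phosphatidylserine on dying cells and marks long-lived resident macrophages. It read 6.51, 6.89 and 5.82 in chow-fed wild-type livers and 6.93, 7.73 and 5.57 in cholesterol-fed ones. In Lats2-CKO livers it read 6.30, 6.09 and 5.94 on chow and 6.12, 6.90 and 6.62 under cholesterol feeding. The diets overlapped in both genotypes, and wild-type high-cholesterol arrays held both the highest and the lowest value of the gene. The change over both genotypes was 0.39 ± 0.32 (limma adjusted p = 0.58), with a 95% interval of -0.33 to 1.10. With cholesterol-fed wild-type array 2 omitted it was 0.14, with array 3 of that group omitted 0.68, and with chow-fed wild-type array 3 omitted 0.24.

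Marco, a scavenger receptor for bacteria and particles, was low on 11 arrays and high on 1. Values were 3.26, 4.13 and 3.71 in chow-fed wild-type livers and 4.25, 8.49 and 3.83 in cholesterol-fed ones. The Lats2-CKO livers gave 3.29, 3.58 and 3.5 on chow and 3.68, 4.44 and 4.03 under cholesterol feeding. The wild-type change of 1.83 ± 0.92 (limma adjusted p = 0.525) was 0.35 without array 2, and in Lats2-CKO livers, where the diets did not overlap, it was 0.59 ± 0.92 (limma adjusted p = 0.837).

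Over both genotypes Fcna and Cd163 had negative fitted changes, unlike the other 7 markers. Fcna encodes ficolin A, a secreted lectin of the complement system. It read 6.92, 6.54 and 5.15 in chow-fed wild-type livers and 5.13, 7.56 and 6.05 in cholesterol-fed ones. In Lats2-CKO livers it read 6.94, 6.27 and 6.31 on chow and 5.75, 5.99 and 6.08 under cholesterol feeding, so that the high-cholesterol arrays were the lower ones there. Its wild-type arrays were the more scattered, with an SD of 0.93 on chow and 1.22 under cholesterol feeding against 0.37 and 0.17 in Lats2-CKO livers. The changes were 0.04 ± 0.56 in wild-type and -0.57 ± 0.56 in Lats2-CKO livers (limma adjusted p = 0.989 and 0.727). Over both genotypes the change was -0.26 ± 0.40 (limma adjusted p = 0.774), with a 95% interval of -1.13 to 0.61. Without wild-type high-cholesterol array 1 it was 0.017. Leaving out both wild-type normal-diet array 3 and wild-type high-cholesterol array 2 was a setting added after the data were seen. That gave -0.85 (limma adjusted p = 0.0431, where 5.95% of all genes were called). Within the higher array set the Fcna diet difference was -1.23 and within the lower set 0.69, so the sets had opposite signs.

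Cd163 is the receptor that takes up haemoglobin bound to haptoglobin. Its wild-type values were 4.79, 3.88 and 2.93 on chow and 3.30, 3.94 and 3.5 under cholesterol feeding. Lats2-CKO values were 4.36, 5.43 and 5.53 on chow and 3.19, 3.37 and 4.42 under cholesterol feeding. Arrays 2 and 3 of the Lats2-CKO normal-diet group were the highest of all 12. The diet change in Lats2-CKO livers was -1.45 ± 0.48 (limma adjusted p = 0.21), where Slc40a1 had 2.26, and in wild-type livers it was -0.29 ± 0.48 (limma adjusted p = 0.882). Over both genotypes it was -0.87 ± 0.34 (limma adjusted p = 0.209). With the array sets as a block and wild-type normal-diet array 3 left out it was -1.40 and passed (limma adjusted p = 0.0346, where 5.54% of all genes were called).

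In wild-type livers alone, 0 of the 9 markers and 0% of all genes passed by limma, while 4 markers (Clec4f, Cd5l, Vsig4 and Slc40a1) had an unadjusted p below 0.05 with a higher value, against 4.03% of all genes. The wild-type median over the 9 was 0.61. It was 0.35 without high-cholesterol array 2 and 0.93 without high-cholesterol array 3. In 3 markers all high-cholesterol arrays exceeded all normal-diet arrays, against 4.97% of all genes. In Lats2-CKO livers alone, 0 of the 9 and 0.271% of all genes were called in either direction. There 5 markers had an unadjusted p below 0.05 on the higher side (6.21% of all genes) and 1, Cd163, on the lower side (7.24%). The Lats2-CKO median was 0.59, and leaving out single arrays moved it between 0.45 and 0.78. In 6 markers all Lats2-CKO high-cholesterol arrays were higher (8.98% of all genes) and in 1, Fcna, all were lower (10.5%).

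The diet effect was not shown to differ between genotypes for any of the 9 markers, and 0.00451% of all genes were called for the interaction. Interaction estimates, as the Lats2-CKO minus the wild-type diet change, ran from -1.23 for Marco to 1.35 for Slc40a1. For Slc40a1 the error was 0.57 and the 95% interval 0.08 to 2.61 (limma unadjusted p = 0.0389, adjusted p = 0.884). Cd5l, with 0.14 and an interval of -1.26 to 1.55, and Vsig4, with 0.26 and an interval of -0.69 to 1.20, had estimates near 0 with wide intervals. Leaving out wild-type high-cholesterol array 2 turned the Marco estimate to 0.25.

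**Figure D3:**
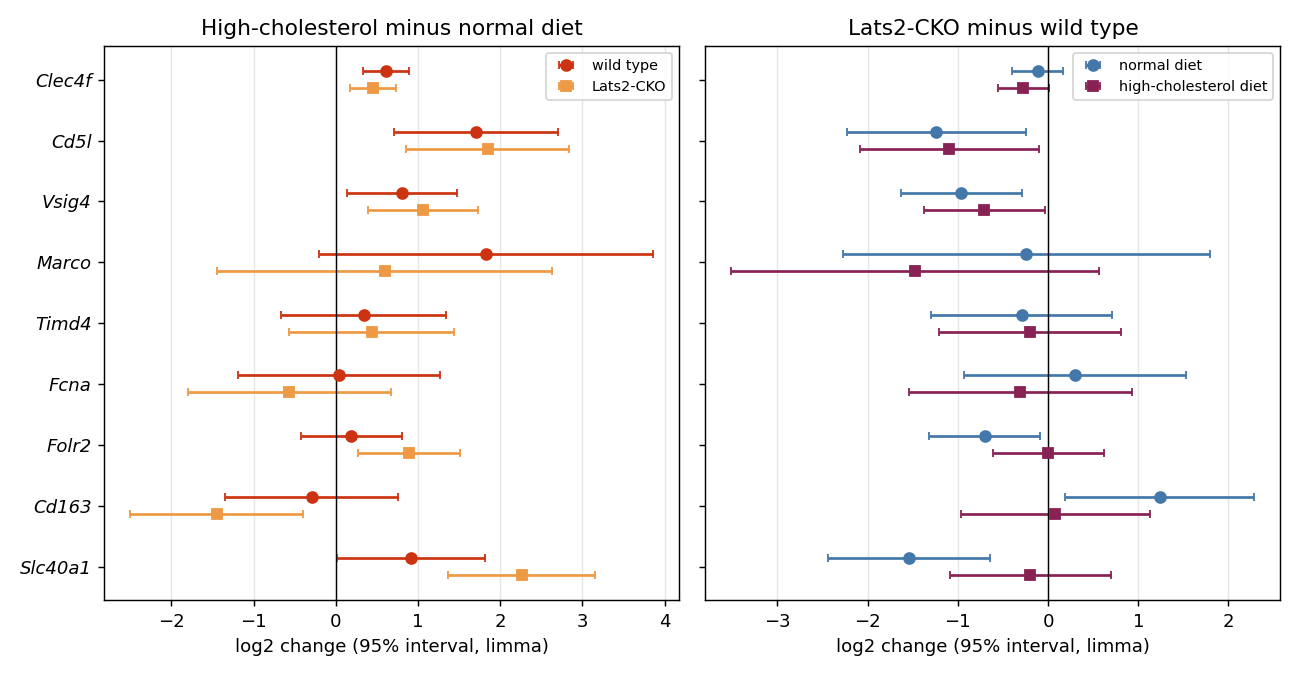
Fitted log2 changes (x axis) with 95% intervals from limma for the 9 markers (y axis). The left panel gives high-cholesterol minus normal diet in wild-type (circles) and Lats2-CKO livers (squares), and the right panel Lats2-CKO minus wild type on normal (circles) and high-cholesterol diet (squares). Cd5l is right of 0 on the left and left of 0 on the right in all 4 contrasts, and Cd163 lies at 1.24 for genotype on chow.

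The genotype comparison asked whether loss of Lats2 went with other marker levels on the same diet. On chow Cd5l, Vsig4, Folr2 and Slc40a1 read lower on all 3 Lats2-CKO arrays than on all 3 wild-type arrays, which is 4 of 9 markers against 7.36% of all genes. Their differences were -1.24 ± 0.45, -0.96 ± 0.30, -0.70 ± 0.28 and -1.54 ± 0.41, and none passed over all genes (limma adjusted p = 0.409, 0.315, 0.474 and 0.253, with 0.0135% of all genes called). Clec4f differed by -0.12 ± 0.13, with a 95% interval of -0.40 to 0.17. Cd163 had the opposite sign, 1.24 ± 0.48 (limma adjusted p = 0.453), and without wild-type normal-diet array 3 it was 0.77, or 0.57 with the array sets also as a block. At an unadjusted p below 0.05 these 4 markers were lower (5.45% of all genes) and Cd163 higher (3.54%). The median over the 9 was -0.29, and it was -0.59 without wild-type normal-diet array 3 and -0.05 without array 2.

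The normal-diet comparison and the diet comparison in Lats2-CKO livers share the Lats2-CKO normal-diet arrays, so a low value there enters both. For Slc40a1, -1.54 against wild type stands beside 2.26 for the diet, and for Cd163 1.24 stands beside -1.45. For Cd5l the corresponding values are -1.24 and 1.85, and for Folr2 -0.70 and 0.89.

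Under cholesterol feeding 0 of the 9 markers and 0% of all genes were called for genotype by limma, where 2 markers, Cd5l (-1.10 ± 0.45) and Vsig4 (-0.71 ± 0.30), had an unadjusted p below 0.05, and 1.94% of all genes did on the lower side. Only Clec4f among the 9 had all Lats2-CKO arrays below all wild-type arrays (3.37% of all genes), by -0.27 ± 0.13 (limma adjusted p = 1.0). The Clec4f groups nearly met, at 8.2255 on the highest Lats2-CKO array and 8.2361 on the lowest wild-type array. Slc40a1 differed by -0.20 ± 0.41, Folr2 by 0.00 ± 0.28 and Cd163 by 0.08 ± 0.48. The Cd5l difference was -0.58 without wild-type array 2 and -1.68 without wild-type array 3, and the Vsig4 difference was -0.47 without wild-type array 1 or Lats2-CKO array 2. Without wild-type high-cholesterol array 2 the median over the 9 turned from -0.27 to 0.21. Averaged over both diets, the smallest adjusted values were those of Vsig4 (-0.83 ± 0.21, limma adjusted p = 0.57) and Cd5l (-1.17 ± 0.32, limma adjusted p = 0.624), and 0.00451% of all genes were called.

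The members differed in how closely they tracked each other over the 12 arrays, which share diet and genotype and so are not independent points. Marco, Cd5l, Clec4f and Folr2 correlated at r = 0.84, 0.82, 0.81 and 0.81 with the mean of the 8 other markers, Fcna at 0.26 and Cd163 at -0.45. After the group means were removed, Fcna stood at 0.69, Cd163 at 0.22 and Vsig4 at -0.02. Fcna and Folr2 had the closest within-group pairing (r = 0.94), and Cd163 and Slc40a1 correlated at -0.76 before and -0.34 after removal. These correlations are not given without wild-type high-cholesterol array 2. On that array Marco read 8.49, against 3.26 to 4.44 on the others, and Fcna (7.56) and Folr2 (8.24) were both at their highest.

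Of 13538 named genes brighter than the 30th percentile, those most like the mean of the 9 markers were Rgs19 (r = 0.977), Adgre1 (0.977), Cfp (0.960), Ppm1h (0.951), Cdk14 (0.945) and Rap2b (0.940) over 12 arrays. Adgre1 encodes the surface receptor by which mouse macrophages are commonly stained, and Cfp properdin, a complement factor made by myeloid cells. Rgs19, Ppm1h, Cdk14 and Rap2b were dim, with means of 3.74, 3.67, 3.49 and 3.32, near the array medians of 3.42 to 3.49. Spearman coefficients of the 6 genes ran from 0.846 to 0.965. Without the 2 arrays farthest from the median of the marker mean, the Pearson values were 0.903, 0.902, 0.892, 0.771, 0.925 and 0.682 in that order, so Ppm1h and Rap2b rested most on those arrays. Adgre1 read 10.22 on wild-type high-cholesterol array 2 and 5.64 to 7.89 on the others.

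Other Kupffer cell genes, 17 of 18 measured, had a median diet change of 0.75 over both genotypes, with 15 above 0, 1 called higher and 1 called lower. The riser was C1qb, of the complement C1q complex, at 1.08 ± 0.22 (limma adjusted p = 0.0461), which read 7.17 to 8.63 on normal-diet and 8.39 to 9.92 on high-cholesterol arrays. Its partners C1qa and C1qc had fitted values of 0.78 ± 0.17 and 0.89 ± 0.23 (limma adjusted p = 0.0513 and 0.0835, named after their values were seen). The gene that fell was Paqr9, a membrane protein of the progestin and adipoQ receptor family, by 2.21 ± 0.45 (limma adjusted p = 0.0461). Paqr9 read 6.93 on wild-type normal-diet array 3 and 9.53 to 9.99 on the 5 other normal-diet arrays, against 6.30 to 7.70 under cholesterol feeding. Its change without wild-type normal-diet array 3 is not given here. Which liver cells gave the Paqr9 signal was not tested, so its fall is not assigned to Kupffer cells.

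Transcription factors of Kupffer cells (10 of 12 measured) had a median of 0.28 and 0 called, with 6 above 0. Spi1 had a fitted value of 0.68 ± 0.19 and Nr1h3 by -0.40 ± 0.15 (limma adjusted p = 0.106 and 0.2). Niche signals and receptors (14 of 14) had a median of 0.19 and 0 called over both genotypes. In Lats2-CKO livers 1 of them, the receptor gene Notch1, rose by 0.88 ± 0.14 (limma adjusted p = 0.0332, where 0.271% of all genes were called). There it read 5.53 to 5.76 on chow and 6.27 to 6.84 under cholesterol feeding. Efferocytosis and scavenger receptors (13 of 13) had a median of 0.26 and 0 called, with Mrc1 at 0.45 ± 0.12 and Cd36 at 1.08 ± 0.32 (limma adjusted p = 0.0822 and 0.115). Heme and iron genes (13 of 14) had a median of 0.05 and 0 called. Among them Cp, the ferroxidase ceruloplasmin that works with ferroportin, read 12.06 to 12.17 on the 6 high-cholesterol and 11.43 to 11.98 on the 6 normal-diet arrays, without overlap (0.38 ± 0.09, limma adjusted p = 0.0585), which 0.379% of all genes and 0 of the 9 resident markers showed. The phagosome metal transporter Slc11a1 had a value of 0.80 ± 0.23 (limma adjusted p = 0.115).

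General macrophage genes gave 12 of 12 fitted values above 0 and a median of 1.0 for the diet over both genotypes. Ctss, a lysosomal protease, rose by 1.41 ± 0.28 and Mpeg1, a pore-forming phagosome protein, by 1.25 ± 0.24 (limma adjusted p = 0.0432 and 0.0427). Genes of recruited and lipid-associated macrophages (12 of 13 measured) had a median of 0.49 with 11 above 0, of which 1, the chemokine receptor Cx3cr1, rose by 0.49 ± 0.10 (limma adjusted p = 0.0484). For genotype on chow the medians were -0.56 and -0.20 for these lists, beside -0.29 for the resident markers, with 0 called in each. The counts of called genes here, too, come from the fit in which 1.24% of all genes were called for the diet, or 0.194% once the array sets entered as a block.

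The means of the resident and of the recruited macrophage genes peaked on different wild-type high-cholesterol arrays. The mean of the centred resident markers was 0.19, 1.47 and 0.01 on arrays 1 to 3 of that group, and that of the recruited genes was 1.60, 0.00 and 0.20. Gpnmb, a glycoprotein of lipid-laden macrophages, read 10.02 on array 1, 3.81 on array 2 and 5.67 on array 3, and Trem2, a lipid receptor of such cells, 5.82, 3.32 and 3.41. Other genes of that list differed less, and Cx3cr1 read 3.81 on array 1 and 3.71 on array 2. Array 2 held the highest value of 7 of the 9 resident markers. Array 1 held the highest value of 1, Vsig4 (10.90, against 10.45 on array 2), and the lowest value of Fcna. The means of both lists thus ran high on 1 array of the group, and it was not the same array. The mean of the general macrophage genes was high on both, at 1.32 on array 1 and 1.38 on array 2. On wild-type normal-diet array 3 the recruited genes were at 0.45 (Gpnmb 7.28) and the resident markers at -0.35. Of the 9 resident markers, 3 read above their own mean there, namely Cd5l (9.20), Vsig4 (9.82) and Slc40a1 (10.06).

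**Figure D4:**
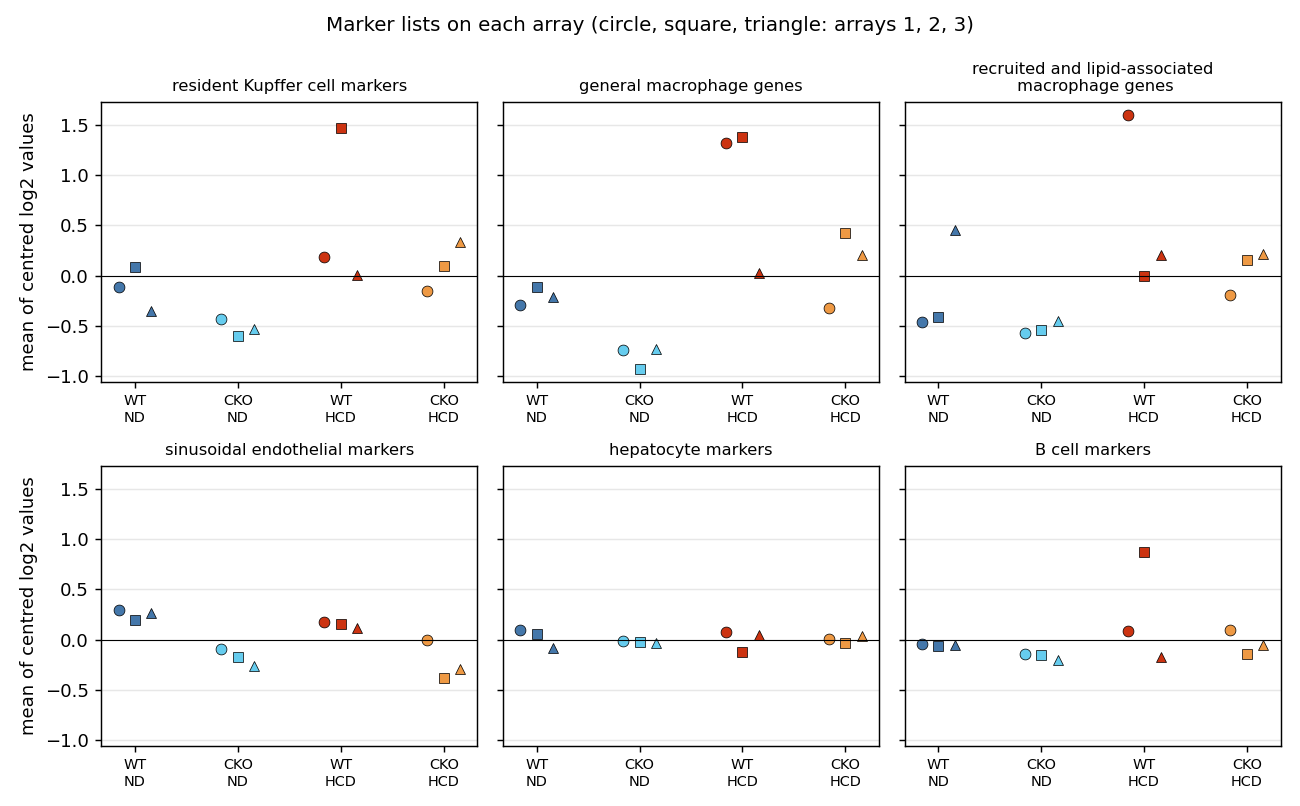
Mean of centred log2 values (y axis, each gene minus its mean over 12 arrays) of 6 marker lists in the 4 groups (x axis), with circles, squares and triangles for arrays 1, 2 and 3. WT HCD array 2 is high for resident Kupffer (1.47) and B cell markers (0.87), WT HCD array 1 for recruited macrophage genes (1.60), and hepatocyte markers stay between -0.12 and 0.09.

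Markers of other cells were read on the same arrays, because a whole liver holds them all. B cell markers (7 of 8 measured, 1 of them with a mean below 3.05) had a centred mean of 0.87 on wild-type high-cholesterol array 2 and -0.21 to 0.10 on the 11 others. Cd79b read 6.17 on that array against 3.03 to 3.93, and Ms4a1 4.88 against 2.95 to 3.41. Erythroid markers were measured by 2 of 6 genes, of which Slc4a1, the red cell anion exchanger, read 4.07 there and 2.79 to 3.07 elsewhere, while Klf1 read 2.89 there and 3.0 to 3.67 elsewhere. The part of these cells in the high Marco and Adgre1 values of that array was not tested. For the diet over both genotypes the B cell and erythroid lists had 0 called genes and medians of 0.12 and -0.05.

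Sinusoidal endothelial markers (10 of 10 measured), from the cells that line the vessel in which Kupffer cells sit, had a diet median of -0.09. Of the 10, 1, the endocytic gene Ehd3, fell by 0.76 ± 0.15 (limma adjusted p = 0.0407). Their centred mean ran from 0.19 to 0.29 in wild-type and -0.26 to -0.09 in Lats2-CKO livers on chow, and from 0.11 to 0.18 and -0.38 to -0.01 under cholesterol feeding. In 6 of 10 all Lats2-CKO arrays lay below all wild-type arrays on chow, against 7.36% of all genes, and 0 were called for genotype. Their part in the lower Cd5l, Vsig4, Folr2 and Slc40a1 values of Lats2-CKO livers was not tested.

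The remaining lists had 0 called genes for the diet over both genotypes. Medians were 0.02 for hepatocyte markers (10 of 10 measured), -0.02 for stellate cell markers (10 of 10), 0.08 for T and NK cell markers (9 of 10), -0.02 for neutrophil markers (8 of 8) and 0.00 for cholangiocyte markers (5 of 6). Alb, the hepatocyte's main secreted protein, read 13.15 to 13.37 on all 12 arrays. The hepatocyte enzyme gene Tat had the smallest adjusted p of its list (-0.53 ± 0.12, limma adjusted p = 0.0604).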

How the data were processed

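Liver RNA (250 ng) of 12 mice was hybridised to single-colour Affymetrix arrays, per the labels. The authors deposited log2 values per probe set after RMA in Partek 6.6, per the submitters' processing notes. RMA settings, genome build and probe set filter are not given in the sources used here. The log2 scale was read from the range, 1.94 to 14.2. Scanner files were not used here. Precision is limited by the 3 arrays per group.

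Of 41345 probe sets, 23521 had 1 gene symbol, 1814 several and 16010 none. Only the first were used, with symbols updated by gene identifier for 23328. For 1082 genes with several probe sets, the one with the highest mean was taken, which left 22180 genes. A fit of 4 group means over 12 arrays was made in limma 3.58.1 (R 4.3.3), with p-values adjusted by Benjamini-Hochberg over all genes at a threshold of 0.05. Errors of changes are SE from this fit. The gene fit was tested on simulated data.

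The 9 markers and the 15 comparison lists were chosen with earlier results of these data known. Besides the markers and Lats2, genes named were list members called in a contrast, or else the 2 with the smallest unadjusted p for the diet over both genotypes, the 6 genes most correlated with the marker mean, and defining markers of other cells. Other genes are marked as named after their values were seen, and Cd79b, Ms4a1, Gpnmb, Trem2 and Alb were named as defining markers.

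Alternatives were a fit on the groups compared, the replicate block, a trended and robust prior, no dim genes, the mean of probe sets, median centring, the array-set block (also without wild-type normal-diet array 3), and each array left out. Leaving out wild-type normal-diet array 3 and wild-type high-cholesterol array 2 together was added after the data were seen. No 2 arrays were identical. Same-numbered arrays of paired groups correlated at 0.01 to 0.17 after group means were removed. No values for differently numbered arrays are given beside these, so they do not settle whether the numbers pair the mice. The main fit treated the arrays as unpaired.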

Additional observations from a re-analysis of the deposited data

How the results depend on the processing

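For the diet over both genotypes, 3 markers were called; with the replicate block, the mean of probe sets or median centring also 3, with dim genes left out or the trended and robust prior 4, with the array-set block 0, with that block and without wild-type normal-diet array 3, 4 (Cd163, lower, among them), and with that array and wild-type high-cholesterol array 2 both left out 4. Single arrays left out gave 0 to 4. The block by replicate number changed no call of a marker. All genes called in that contrast numbered 274, and 43 with the array-set block, 421 of 15401 without dim genes, 1229 with the block and without array 3, 1320 without both arrays, and 6 to 1605 with single arrays left out; the cause was not tested.

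For the diet in Lats2-CKO livers, 0 markers were called. The fit on the groups compared gave 2 (1.19% of all genes). There was 1 each with the trended and robust prior (0.442%), without dim genes (0.708%), with the mean of probe sets (0.37%) and with the array-set block without array 3 (2.58%). Without both arrays there were 3 (1.94%), and with single arrays left out 0 to 1 (0.0225% to 2.11%). In wild-type livers single arrays left out gave 0 to 1 (0% to 2.33% of all genes). The median over the markers for genotype under cholesterol feeding was -0.27, 0.21 without both arrays, and -0.47 to 0.21 with single arrays left out. That of the interaction was 0.10, with -0.44 to 0.27 when single arrays were left out and 0.077 to 0.51 over the other alternatives.

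Changes that took the other sign were all uncalled as reported. With the array-set block and without array 3 these were, for the diet in wild type, Fcna (-0.85) and Folr2 (-0.21), and Fcna for genotype on chow (-0.41) and for the interaction (0.10). With both arrays left out they were Timd4 (-0.45), Fcna (-1.14) and Folr2 (-0.34) for the diet in wild type, Timd4 (-0.0080) for the diet over both genotypes, Fcna (-0.23) for genotype on chow, Marco (0.0068), Timd4 (0.30), Fcna (0.35) and Slc40a1 (0.21) under cholesterol feeding, Fcna (0.061) over both diets, and Clec4f (0.0068), Marco (0.24) and Fcna (0.57) for the interaction. Median centring gave Folr2 -0.00020 for genotype under cholesterol feeding. With single arrays left out, ranges across 0 were, for the diet in wild type, Timd4 -0.16 to 0.93, Fcna -0.61 to 0.60, Folr2 -0.14 to 0.49 and Cd163 -0.76 to 0.17, and for the diet over both genotypes Fcna -0.59 to 0.017. For genotype they were Fcna -0.23 to 0.66 on chow, Marco -2.32 to 0.0068, Timd4 -0.78 to 0.30, Fcna -0.86 to 0.35, Folr2 -0.30 to 0.33, Cd163 -0.30 to 0.32 and Slc40a1 -0.59 to 0.21 under cholesterol feeding, and Timd4 -0.54 to 0.0018 and Fcna -0.28 to 0.32 over both diets. For the interaction they were Cd5l -0.44 to 0.66, Vsig4 -0.052 to 0.49, Marco -2.08 to 0.25, Timd4 -0.49 to 0.59 and Fcna -1.17 to 0.048. In Lats2-CKO livers all 189 recomputed diet changes of the markers kept their sign.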
